A study of Homo sapiens with 9 samples.

Results

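The 10 genes described here encode integrin subunits and were taken by symbol from the 58721 genes counted in each of 9 RNA libraries of H1299 cells. They are ITGA2, ITGA3, ITGA5, ITGA6, ITGA10, ITGAV, ITGB1, ITGB3, ITGB4 and ITGB5. ITGA10 was chosen by its measured counts in these libraries, in which an earlier look had shown it higher with siCLOCK and not with melatonin. Its values in the 3 groups are therefore given as a description, with no test. No measured value is part of the choice of the other 9 members, although they too were chosen with earlier results of these data known.

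Integrins are receptors in the plasma membrane, each made of 1 alpha and 1 beta chain, that hold cells to the extracellular matrix and pass signals in both directions. The pair of chains sets the ligand: alpha10 beta1 and alpha2 beta1 bind collagens, alpha3 beta1, alpha6 beta1 and alpha6 beta4 bind laminins, and alpha5 beta1 and the alphaV integrins bind proteins with the RGD sequence such as fibronectin and vitronectin. ITGB1 is the shared partner of most alpha chains in epithelial cells. CLOCK is a transcription factor that works with ARNTL on E-box sequences in promoters.

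H1299 is an established line of human non-small cell lung carcinoma. The groups were cells given small interfering RNA against CLOCK (siCLOCK), cells given 0.1 mM melatonin and control cells in serum free medium, with 3 libraries each. The labels name neither a non-targeting siRNA nor a treatment time, and whether the medium of the treated cells also lacked serum is not given in the labels used here. Nothing in them says that the libraries of a group came from separate cultures, so the p-values here reflect the spread among these 9 libraries, which may be technical.

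Counts assigned to genes ranged from 15384539 to 19192962 per library. The siRNA target stood at 51.5% and 78.7% of the control mean in siCLOCK replicates 1 and 2. In the library labelled siCLOCK replicate 3 it stood at 93.8%, which goes against the label. In that library and the 3 melatonin libraries 2.24% to 2.34% of reads were unmapped, against 1.22% to 1.36% in siCLOCK replicates 1 and 2 and the controls. The 2 kinds of library so divided are called technical sets here. They were divided by unmapped reads alone, and the sample titles name no run or batch. The sets leave melatonin and control without a library in common. Melatonin can be told apart from the set only through the library labelled siCLOCK replicate 3. The epithelial keratins KRT8 and KRT18 and the mesenchymal filament gene VIM reached 130 to 182, 213 to 344 and 1466 to 2018 CPM (read counts scaled to a common library size). Of the 5 epithelial carcinoma markers, EPCAM and KRT19 were near 0, at no more than 0.476 and 1.27 CPM. The summed level of these 5 markers was 2231 to 2451 CPM in siCLOCK, 1819 to 1875 CPM in melatonin and 2159 to 2499 CPM in control. Most of this sum was VIM, which averaged 1865 CPM in siCLOCK, 1503 CPM in melatonin and 1853 CPM in control. KRT8 and KRT18 averaged 132 and 217 CPM in melatonin, against 164 and 269 CPM in control. The part of these markers in the melatonin results was not tested. The platelet markers PF4, GP9 and PPBP had 0 reads in all libraries. The leukocyte marker PTPRC and the endothelial marker CDH5 had at most 1 read in any library. The summed level of the 3 fibroblast markers was 0.811 to 0.944 CPM in siCLOCK, 1.44 to 1.5 CPM in melatonin and 0.785 to 1.38 CPM in control, with LUM at 0, and its part in the melatonin results was not tested.

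ITGA10 (ENSG00000143127.12) lies on chromosome 1, at 145891208 to 145910189 on the minus strand of GRCh38, in 30 exon blocks. The sequence before its start is shown because CLOCK acts on E-boxes, and that of ITGA6 because it was the sole member with a perfect E-box in this window. Both are RefSeq sequences on GRCh38.p14, written 5′ to 3′ on the gene's own strand, with the letters CACGTG in capitals. The first is the part of the ITGA10 window outside the annotated gene, chr1:145910190-145910300 on the minus strand, and the second is the ITGA6 window, chr2:172427086-172427335 on the plus strand.
ITGA10: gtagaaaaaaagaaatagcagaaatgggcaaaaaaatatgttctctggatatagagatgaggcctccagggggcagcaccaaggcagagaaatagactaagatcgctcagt
ITGA6: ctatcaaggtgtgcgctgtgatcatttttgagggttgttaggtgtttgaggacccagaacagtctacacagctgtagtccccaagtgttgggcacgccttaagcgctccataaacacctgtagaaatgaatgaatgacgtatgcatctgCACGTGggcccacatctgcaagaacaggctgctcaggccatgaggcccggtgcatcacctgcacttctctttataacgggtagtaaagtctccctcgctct
CACGTG, which reads the same on both strands and was the sole motif searched, did not occur in the 250 bases before the RefSeq start of ITGA10. That window, chr1:145910051-145910300, lies partly inside the annotated gene, and the 111 bases printed above are the part outside it. CACGTG occurred once before 1 of the 2 ITGA6 starts, 101 bases upstream. Of 7 members with a RefSeq window, ITGA6 was the 1 member that held it, in 1 of 12 windows, while 6.34% of all 35116 windows of 250 bases held it. ITGA3, ITGB3 and ITGB4 had no window in the table. A match or its lack describes these letters in this window.

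The first question was how the 10 subunits stood to each other in these cells, which was read from CPM per kilobase of exon, a scale that allows genes of different length to be compared. ITGB1, the common beta chain, was the highest in control cells at 310 CPM per kilobase ± 15 (SD, n = 3), followed by the laminin-binding alpha chain ITGA3 at 231 ± 22.3. ITGA6, the other laminin-binding alpha chain, stood far below at 40.1 ± 1.7 CPM per kilobase. ITGB5, a beta partner of alphaV, stood at 29.6 ± 0.843 CPM per kilobase.

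ITGAV and ITGA5, the alpha chains of RGD-binding integrins, followed at 21.3 ± 1.51 and 21 ± 0.755 CPM per kilobase, and their control libraries overlapped. ITGA10 stood at 8.87 ± 0.423 and ITGA2 at 6.6 ± 0.855 CPM per kilobase, so in control cells ITGA10 was the higher of these collagen-binding alpha chains, with no overlap. ITGB4, the beta chain that links alpha6 to hemidesmosomes, stood at 2.76 ± 0.547 CPM per kilobase. GALK1, on the opposite strand, overlaps the ITGB4 gene but shares 0 exon bases with it. It had 293 to 531 reads per library, against 226 to 366 for ITGB4. ITGB3 was lowest at 1.42 ± 0.0768 CPM per kilobase. Of its exon sequence, 51.57% is shared with the overlapping gene AC068234.1, which had 0 counts in every library. Reads that fit both genes are set aside as ambiguous in this kind of counting, so the level of ITGB3 may be a low estimate.

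**Figure D1:**
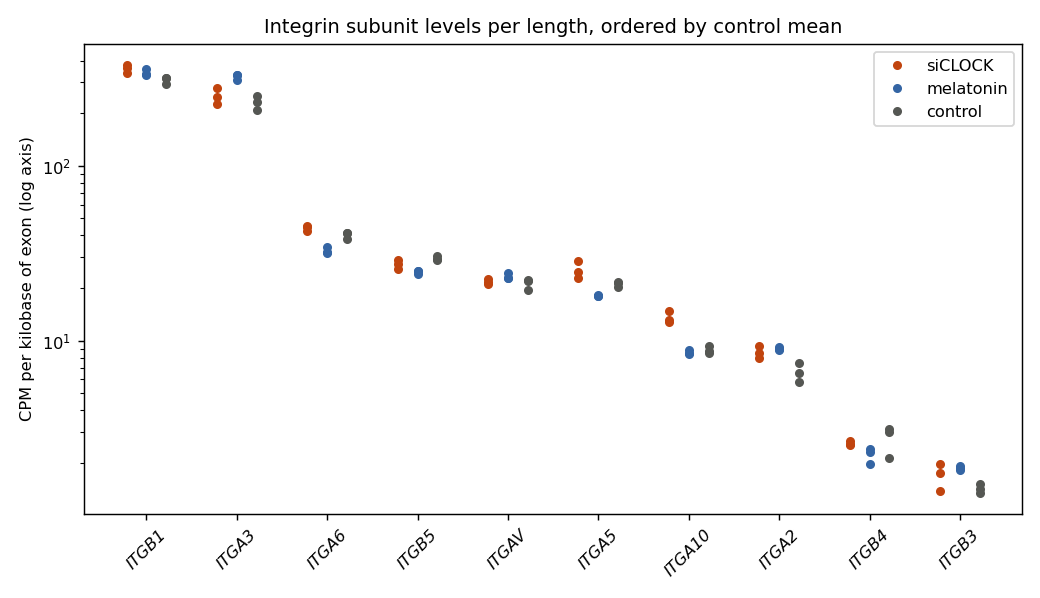
Level of each integrin subunit in CPM per kilobase of exon, on a log axis, with 1 point per library and the groups siCLOCK, melatonin and control side by side. ITGB1 and ITGA3 stood at over 200 CPM per kilobase in every library, and ITGB4 and ITGB3 at the low end.

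Of the 26 human integrin subunit genes, the 10 members made up 96.2% to 97.4% of the summed level per kilobase in every library. Among the 18 alpha genes, ITGA3 took 62.2% to 66.6% of the summed alpha level in siCLOCK, 72.8% to 74.8% in melatonin and 62.5% to 67% in control. ITGA10 took 3.32% to 3.63% in siCLOCK, 1.89% to 2.02% in melatonin and 2.48% to 2.56% in control. The ITGA10 share was lowest in the melatonin libraries, where its own level overlapped control and the alpha sum it is divided by was 425 to 442 CPM per kilobase, against 332 to 376 in control. Among the 8 beta genes, ITGB1 took 91.7% to 91.8% in siCLOCK, 91.8% to 92.6% in melatonin and 89.6% to 90.2% in control. ITGB5 made up 6.93% to 7.06% of the beta sum in siCLOCK, 6.19% to 6.95% in melatonin and 8.35% to 8.85% in control.

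**Figure D2:**
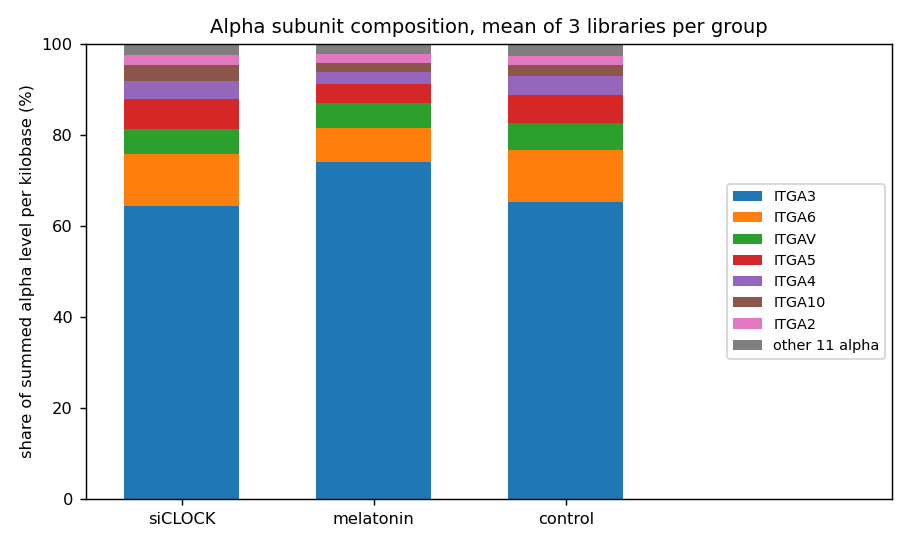
Mean share of each alpha subunit in the summed alpha level per kilobase, in percent, for 3 libraries per group in siCLOCK, melatonin and control. ITGA3 averaged 64.4% in siCLOCK, 74.1% in melatonin and 65.3% in control, and ITGA10 averaged 3.49%, 1.97% and 2.52% in the same groups.

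ITGA10, a collagen-binding chain that pairs with ITGB1 and is best known from cartilage, was measured at 69.5 and 77.6 CPM in siCLOCK replicates 1 and 2. The library labelled siCLOCK replicate 3 held 67.6 CPM. It stood at 44.8, 44.2 and 46.8 CPM in the melatonin libraries and at 49.2, 46.3 and 44.8 CPM in the controls. All 3 siCLOCK libraries lay above all others, and the melatonin and control libraries overlapped. The log2 fold change was 0.61 (SE 0.072, 1.53-fold) for siCLOCK against control, -0.05 (SE 0.074) for melatonin against control and -0.66 (SE 0.072) for melatonin against siCLOCK. Among the siCLOCK libraries, the one with 93.8% of control CLOCK had 67.6 CPM of ITGA10. The one with 78.7% had 77.6 CPM and the one with 51.5% had 69.5 CPM. Whether ITGA10 followed CLOCK was not tested, and 3 libraries, 1 of them of the other technical set, cannot show or deny it. Summed, the 3 endothelial markers had 3.03 to 4.35 CPM in siCLOCK. They had 2.02 to 3.03 CPM in melatonin and 2.18 to 2.97 CPM in control. Nearly all of this was PECAM1, as CDH5 had at most 1 read and VWF at most 6 reads in any library. The part of these markers in the ITGA10 difference was not tested. In bulk RNA, fewer cells of a kind and less RNA per cell cannot be told apart.

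Raw reads of ITGA10 numbered 1284, 1444 and 1288 in the siCLOCK libraries, 711, 855 and 878 in the melatonin libraries and 927, 874 and 799 in the controls. The libraries were not stranded, and each of the strand columns of the files gave the same direction for siCLOCK against control, at 0.53 and 0.65 on the log2 scale. Its antisense neighbour AC243547.1, which shares 2.32% of the ITGA10 exon bases, had at most 1 read in any library. Reads in shared bases are set aside as ambiguous when strand is ignored. Control replicate 1 had 927 ITGA10 reads in that count, but 514 and 497 in the strand columns. For siCLOCK replicate 2 these were 1444, 756 and 812, and for melatonin replicate 2 they were 855, 456 and 448. Leaving out single libraries gave 0.55 to 0.65 for siCLOCK against control. Without the library labelled siCLOCK replicate 3 all siCLOCK and control libraries are of 1 technical set, and the value was 0.65.

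Genes of the same stretch of chromosome 1 gave the local background. RBM8A, which encodes a core protein of the exon junction complex, stood at 65.9 and 58 CPM in siCLOCK replicates 1 and 2 and 57 CPM in the library labelled siCLOCK replicate 3, against 55.7, 56.9 and 60.4 CPM in control. These libraries overlapped, and RBM8A did not pass (log2 fold change 0.07, SE 0.072, adjusted p = 0.890 in edgeR). PIAS3, an inhibitor of activated STAT3, did not pass either, at 0.14 (SE 0.065, adjusted p = 0.584), though all 3 siCLOCK libraries lay above all controls. ANKRD35 was below 0.5 CPM in every library and was not tested. In melatonin against control, PIAS3 rose by 0.29 on the log2 scale (SE 0.065, adjusted p = 0.00372), while RBM8A had -0.12 and did not pass.

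By Pearson correlation of log2 CPM over the 9 libraries, the genes most like ITGA10 among 10534 protein-coding genes of at least 5 CPM were SLC20A1 (r = 0.972), PLAU (0.968), ATG7 (0.953), TNFRSF25 (0.949) and ADAM19 (0.949). The points share libraries and fall into groups, so these values only describe likeness. SLC20A1, a phosphate transporter, averaged 329 CPM ± 23.5 in siCLOCK, 237 ± 4.75 in melatonin and 251 ± 4.99 in control (SD, n = 3). PLAU, the urokinase protease, averaged 228 CPM ± 9.5 in siCLOCK, 186 ± 1.67 in melatonin and 194 ± 4.51 in control. ADAM19, a membrane metalloprotease, averaged 42.6 CPM ± 3.58 in siCLOCK, 27.9 ± 0.403 in melatonin and 32.6 ± 2.11 in control.

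**Figure D3:**
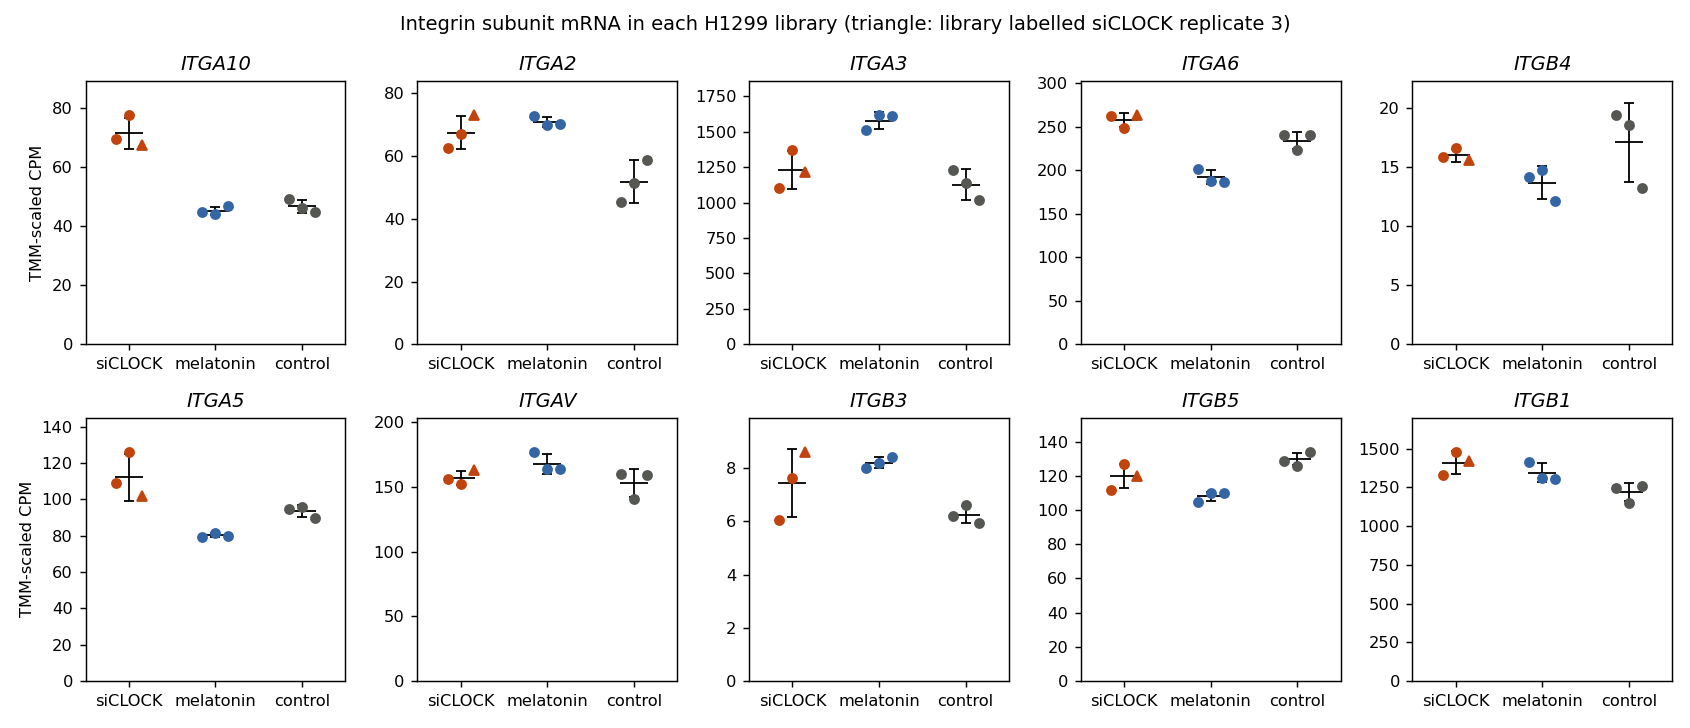
TMM-scaled CPM of the 10 integrin subunits, with 1 point per library (triangle: library labelled siCLOCK replicate 3) and the mean with SD of 3 libraries for siCLOCK, melatonin and control. ITGA3 in melatonin lay at 1510 to 1616 CPM, above all other libraries, and ITGA6 and ITGA5 in melatonin lay below all others.

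For siCLOCK against control, the other 9 members were tested in edgeR's quasi-likelihood fit of all genes, with an adjusted p under 0.05 as the threshold. None of the 9 passed, while 0.122% of all 16441 genes tested passed (0.0547% higher and 0.0669% lower). An unadjusted p under 0.05 was found in 4 of the 9 and in 8.24% of all genes. By the alternative tools, DESeq2 called 1 of the 9 (ITGA2) and 0.42% of all genes, and limma-voom 0 of the 9 and 0.0912% of all genes. In 4 of the 9, ITGA2, ITGA6, ITGA5 and ITGB1, all siCLOCK libraries lay above all controls, as in 5.75% of all genes, and in none did they all lie below, as they did in 5.06% of all genes (10.8% in either direction). The median log2 fold change of the 9 was 0.14 and that of all genes 0.

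ITGA2, the alpha chain of the main collagen receptor of epithelial cells and platelets, had 62.7 and 66.9 CPM in siCLOCK replicates 1 and 2 and 73 CPM in the library labelled siCLOCK replicate 3. The controls had 45.5, 51.4 and 58.9 CPM. The groups did not overlap, and the log2 fold change was 0.38 (SE 0.085, adjusted p = 0.0990 in edgeR). It passed in DESeq2 (adjusted p = 0.0112), with no low-count filter (adjusted p = 0.00114), without control replicate 3 (0.48, adjusted p = 0.0194) and without siCLOCK replicate 1 (0.43, adjusted p = 0.0244). Over all alternatives that left out a library it ranged from 0.29 to 0.48.

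ITGA5, the alpha chain of the classical fibronectin receptor, had 109 and 126 CPM in siCLOCK replicates 1 and 2 and 102 CPM in the library labelled siCLOCK replicate 3, against 94.7, 95.9 and 89.6 CPM in the controls. The groups did not overlap, and the log2 fold change was 0.27 (SE 0.074, adjusted p = 0.240). With the library labelled siCLOCK replicate 3 left out, ITGA5 passed at 0.33 (adjusted p = 0.0352), as it did with a term for the technical set (adjusted p = 0.0307). ITGB1, the partner of ITGA10, ITGA2 and ITGA5, had 1330 and 1479 CPM in siCLOCK replicates 1 and 2 and 1423 CPM in the library labelled siCLOCK replicate 3, against 1249, 1151 and 1257 CPM in the controls. Its groups did not overlap either, at 0.21 (SE 0.063, adjusted p = 0.292).

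ITGA6 averaged 258 CPM ± 7.9 in siCLOCK and 234 ± 9.91 in control, at 0.14 (SE 0.061, adjusted p = 0.554). ITGA3 averaged 1229 CPM ± 133 in siCLOCK and 1127 ± 109 in control, with overlapping libraries (0.12, SE 0.079, adjusted p = 0.745). ITGAV (0.04, SE 0.066), ITGB4 (-0.09, SE 0.12) and ITGB5 (-0.12, SE 0.063) had overlapping groups as well. ITGB3 differed among siCLOCK libraries more than any other member, with 6.06 and 7.63 CPM in replicates 1 and 2 and 8.61 CPM in the library labelled siCLOCK replicate 3.

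For melatonin against control, 3 of the 9 members rose, where 11% of all genes rose, and 3 fell, where 12.1% of all genes fell (23.1% in either direction). ITGA3, ITGA2 and ITGB3 rose, and ITGA6, ITGB5 and ITGA5 fell. All melatonin libraries lay above all controls in 5 of the 9 members (21.9% of all genes) and below in 3 (21.4% of all genes, and 43.4% in either direction). The median log2 fold change was 0.13, and 0.01 over all genes. With the term for the technical set, 1 member passed as higher and 0 as lower, and 4.68% of all genes passed in either direction. That term is estimated only from the library labelled siCLOCK replicate 3 against siCLOCK replicates 1 and 2 and takes in any other difference between them.

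Laminin-binding subunits moved in both directions. ITGA3 had 1510, 1616 and 1609 CPM in melatonin and 1232, 1135 and 1015 CPM in control. The groups did not overlap, and the log2 fold change was 0.49 (SE 0.079, 1.4-fold, adjusted p = 2.44e-04), or 0.51 with the set term (adjusted p = 0.0300). It was the one member called with that term. ITGA6 fell to 201, 188 and 186 CPM in melatonin, against 240, 223 and 240 CPM in control. Its log2 fold change was -0.29 (SE 0.061, adjusted p = 0.00223), and -0.33 with the set term (adjusted p = 0.0674). ITGB4, the beta4 chain that pairs with alpha6 alone, had 14.2, 14.8 and 12.1 CPM in melatonin and 19.4, 18.6 and 13.2 CPM in control. These libraries overlapped, and it did not pass (-0.32, SE 0.123, adjusted p = 0.0694), but it passed without control replicate 3 (-0.47, adjusted p = 0.00429), with siCLOCK replicate 1 left out (adjusted p = 0.0459) or the library labelled siCLOCK replicate 3 left out (adjusted p = 0.0440), with no low-count filter (adjusted p = 0.0183), with the 6 compared libraries alone (adjusted p = 0.0192).

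Of the collagen-binding chains, ITGA2 rose to 72.9, 70 and 70.1 CPM in melatonin, against 45.5, 51.4 and 58.9 CPM in control (log2 fold change 0.45, SE 0.085, adjusted p = 8.36e-04). The library labelled siCLOCK replicate 3, of the same technical set as the melatonin libraries, held 73 CPM, just above them. With the set term ITGA2 did not pass (0.28, adjusted p = 0.277).

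Of the RGD-binding chains, ITGA5 fell to 79.4, 81.3 and 80 CPM in melatonin, against 94.7, 95.9 and 89.6 CPM in control. Its log2 fold change was -0.22 (SE 0.075, adjusted p = 0.0410), and -0.01 with the set term (adjusted p = 0.988). The call was also lost without any 1 of control replicates 1 and 2 and the melatonin libraries (adjusted p from 0.0907 to 0.132). ITGB5 fell to 105, 110 and 110 CPM in melatonin, against 129, 126 and 134 CPM in control (-0.26, SE 0.064, adjusted p = 0.00628), with the same size but no call with the set term (-0.26, adjusted p = 0.199).

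ITGB3, best known as the beta chain of the platelet and endothelial receptors, was called at 8.01, 8.21 and 8.42 CPM in melatonin, against 6.21, 6.62 and 5.95 CPM in control (0.39, SE 0.129, adjusted p = 0.0343). Its 8.61 CPM in the library labelled siCLOCK replicate 3 lay above all melatonin libraries. With the set term the value was 0.06 (adjusted p = 0.912). It rested on 106 to 164 reads per library, and the strand columns gave 0.09 and 0.69. The call was lost in DESeq2 (adjusted p = 0.0731) and without any 1 of the control or melatonin libraries (adjusted p from 0.0620 to 0.111). Of the 3 endothelial markers, PECAM1 alone was tested, and the summed level of the list was 2.02 to 3.03 CPM in melatonin and 2.18 to 2.97 CPM in control. The 3 platelet markers were at 0.

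ITGAV averaged 168 CPM ± 7.62 in melatonin and 153 ± 10.9 in control and did not pass (0.13, SE 0.066, adjusted p = 0.156). ITGB1 averaged 1345 CPM ± 61.3 in melatonin and 1219 ± 58.9 in control (0.14, SE 0.063, adjusted p = 0.115). In both genes all melatonin libraries lay above all controls. ITGB1 passed when the 6 compared libraries were fitted alone (adjusted p = 0.0459).

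**Figure D4:**
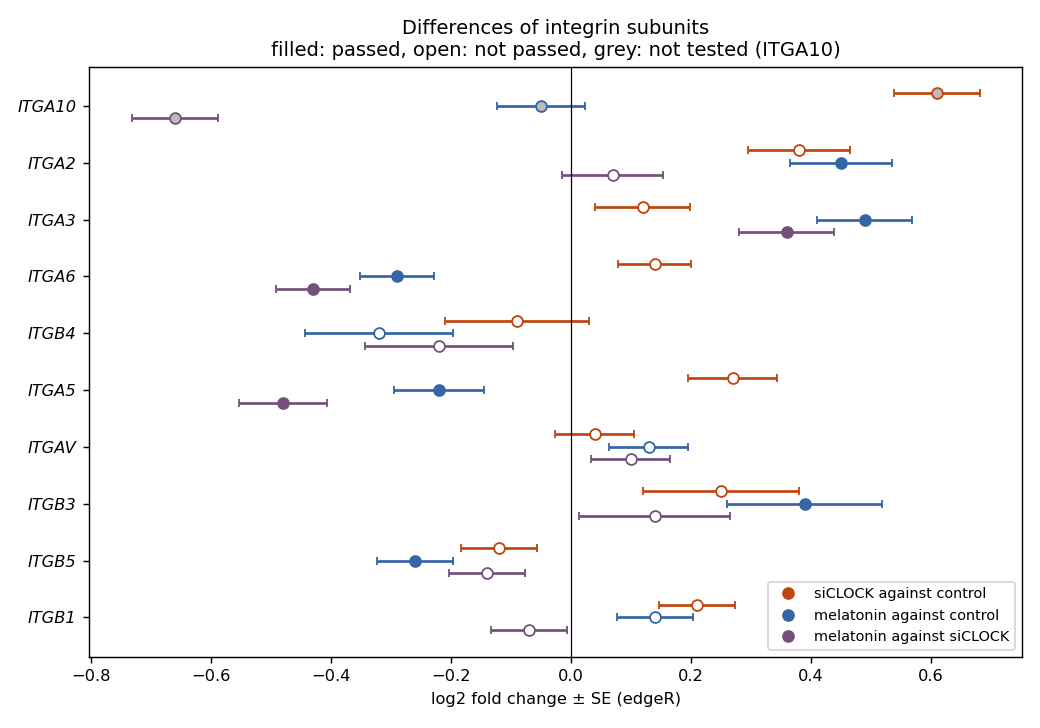
Log2 fold change with its SE from edgeR for each subunit in siCLOCK against control, melatonin against control and melatonin against siCLOCK. Filled points passed at an adjusted p under 0.05, open points did not, and grey points (ITGA10) were not tested. ITGA3 was at 0.49 in melatonin against control and 0.36 in melatonin against siCLOCK.

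The treatments were also compared with each other directly. The siCLOCK libraries serve in this comparison and in that with control, so these values are not independent. Of the 9 members, 1 was higher in melatonin than in siCLOCK (7.43% of all genes) and 2 were lower (10.1% of all genes, and 17.5% in either direction). All melatonin libraries lay above all siCLOCK libraries in 2 members (16.8% of all genes) and below in 4 (17.4% of all genes, and 34.2% in either direction). ITGA3 rose, at 1510, 1616 and 1609 CPM in melatonin, against 1104 and 1368 CPM in siCLOCK replicates 1 and 2 and 1215 CPM in the library labelled siCLOCK replicate 3 (log2 fold change 0.36, SE 0.079, adjusted p = 0.00415).

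ITGA6 fell, at 201, 188 and 186 CPM in melatonin, against 262 and 249 CPM in siCLOCK replicates 1 and 2 and 263 CPM in the library labelled siCLOCK replicate 3 (-0.43, SE 0.061, adjusted p = 1.02e-04). ITGA5 fell, averaging 80.2 CPM ± 0.967 in melatonin and 112 ± 12.7 in siCLOCK (-0.48, SE 0.074, adjusted p = 2.05e-04). All 3 also passed with the set term, ITGA3 at 0.38 (adjusted p = 0.0380), ITGA6 at -0.46 (adjusted p = 9.59e-04) and ITGA5 at -0.34 (adjusted p = 0.0254). Within 1 technical set, ITGA10 had 44.2 to 46.8 CPM in the melatonin libraries and 67.6 CPM in the library labelled siCLOCK replicate 3, a single library that allows no test.

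The remaining 6 members did not pass between the treatments. ITGA2, at 0.07 (SE 0.084, adjusted p = 0.604), ITGB1, at -0.07 (SE 0.063, adjusted p = 0.501), and ITGB3, at 0.14 (SE 0.126, adjusted p = 0.471), had overlapping libraries. In ITGB5 all melatonin libraries lay below all siCLOCK libraries (-0.14, SE 0.064, adjusted p = 0.131), as they did in ITGB4 (-0.22, SE 0.123, adjusted p = 0.229). In ITGAV they all lay above, at 0.10 (SE 0.066, adjusted p = 0.336).

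Of the 16 other integrin subunit genes, 11 were tested and 5 (ITGA8, ITGA11, ITGAL, ITGB2 and ITGB7) were too low. None passed in siCLOCK against control. In melatonin against control 1 rose and 3 fell, so 36.4% of the 11 were called, and 23.1% of all genes (11% higher and 12.1% lower). ITGA4, an alpha chain that binds fibronectin and the vascular adhesion molecule VCAM1, fell to 55.4, 51.7 and 52.2 CPM in melatonin, against 68.1, 64.7 and 73.7 CPM in control (log2 fold change -0.38, SE 0.069, adjusted p = 7.57e-04). The library labelled siCLOCK replicate 3 held 74.1 CPM of it, and it passed with the set term at -0.46 (adjusted p = 0.0242). ITGAM, known from leukocytes, fell to 3.09 CPM ± 0.201 in melatonin, against 6.2 ± 0.948 in control (-1.01, SE 0.163, adjusted p = 2.34e-04, and -1.27 with the set term, adjusted p = 0.00612).

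ITGA1, a further collagen-binding chain, rose by 0.29 on the log2 scale in melatonin (SE 0.094, adjusted p = 0.0339) and ITGB6, an alphaV partner, stood at 0.605 CPM ± 0.187 in melatonin and 1.21 ± 0.338 in control (adjusted p = 0.0435). Neither passed with the set term. The summed level of the 4 leukocyte markers was 0.107 to 0.378 CPM in melatonin and 0.168 to 0.318 CPM in control, with CD3E at 0.

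Genes that work with integrins were counted in 4 lists beside these other subunits. Of the 95 genes tested of 113 in all 5 lists, none passed in siCLOCK against control in edgeR (0.122% of all genes), and 13 had an unadjusted p under 0.05 (8.24% of all genes). DESeq2 called 1 of them, against 0.42% of all genes, and limma-voom 0. Without the library labelled siCLOCK replicate 3, 3 matrix ligand genes passed, all higher, while 0.617% of all genes passed, and without siCLOCK replicate 1 also 3 genes of the lists. Among them, named after their values were seen, were LAMC1, a gamma chain of several laminins, and SPP1, which encodes osteopontin, an RGD ligand. With all libraries the log2 fold change was 0.22 for LAMC1 (adjusted p = 0.292) and 0.97 for SPP1 (adjusted p = 0.0747).

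In melatonin against control, 12 of the 95 rose and 25 fell, so 38.9% were called, while 11% of all genes rose and 12.1% fell, 23.1% in all. The median log2 fold change of the 95 was -0.01, and 0.01 over all genes. By list, 44.4% of the activators and adaptors, 13.6% of the kinases and scaffolds, 54.2% of the matrix ligands and 45.5% of the hemidesmosome and lateral partners were called, to be read against the same 23.1%. With the set term 5 of the 95 were called, and 4.68% of all genes. Of 27 integrin activators and adhesion adaptors, 1 rose, 11 fell and 15 did not pass. FLNA, an actin crosslinker that binds beta tails, averaged 889 CPM ± 31.5 in melatonin and 1150 ± 49.6 in control (-0.37, adjusted p = 4.33e-04). VASP, an actin polymerization factor (-0.45), ACTN1, an actin crosslinker of adhesions (-0.32), and ITGB1BP1, which binds the beta1 tail (-0.31), fell as well. With the set term none of these 27 passed. Of 22 adhesion kinases and scaffolds, 1 rose and 2 fell, namely GIT2 (0.33), RHOA (-0.24) and RAC1 (-0.24), and none passed with the set term.

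Among 24 matrix ligands 7 rose and 6 fell in melatonin. LAMB3, the beta chain of laminin-332, which alpha3 beta1 and alpha6 beta4 bind, had 47.2, 50.5 and 49.3 CPM in melatonin and 84.6, 80.6 and 78.4 CPM in control (-0.73, SE 0.079, adjusted p = 3.38e-06), and 73.8 CPM in the library labelled siCLOCK replicate 3. The groups did not overlap, and it passed with the set term at -0.44 (adjusted p = 0.0241). TNC, an adhesion-modulating matrix protein, fell by 0.89 (adjusted p = 6.01e-05) and COL6A3, a collagen VI chain at 0.292 CPM ± 0.163 in melatonin and 1.02 ± 0.136 in control, by 1.77 on the log2 scale. MFGE8, an RGD ligand of alphaV integrins, rose by 0.50 (adjusted p = 1.20e-04). With the set term 1 ligand was higher (LAMC1, at 0.42) and 1 lower (LAMB3).

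Of 11 hemidesmosome and lateral partners, 2 rose and 3 fell. COL17A1, the transmembrane collagen of hemidesmosomes that meets alpha6 beta4, fell to 2.08, 1.45 and 1.76 CPM in melatonin, against 4.19, 5.08 and 4.88 CPM in control (-1.43, SE 0.177, adjusted p = 1.45e-05), with 5.67 CPM in the library labelled siCLOCK replicate 3. It passed with the set term at -1.39 (adjusted p = 0.00395). The tetraspanin CD9 (-0.31) and SLC3A2, which binds beta1 tails (-0.36), fell and the tetraspanin CD63 rose (0.27), none of them with a call under the set term.

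Between the treatments, 6 of the 95 genes were higher in melatonin than in siCLOCK and 23 were lower, so 30.5% were called, while 7.43% of all genes were higher and 10.1% lower, 17.5% in all. With the set term 10 of the 95 were called, and 5.85% of all genes. Of 27 activators and adaptors 1 was higher and 11 were lower, but with the set term 1 was higher and 1 lower. Among the 11 was the adhesion scaffold PXN, which averaged 359 CPM ± 17.5 in melatonin and 451 ± 27.3 in siCLOCK (-0.33, adjusted p = 0.00311, and -0.23 with the set term, adjusted p = 0.129). LAMB3 (-0.79, adjusted p = 3.16e-06), TNC (-0.96, adjusted p = 4.16e-05) and COL17A1 (-1.72, adjusted p = 3.01e-06) were lower in melatonin, and all 3 passed with the set term, at -0.59, -0.67 and -1.70. FBN1, an RGD-bearing fibrillin of microfibrils, was higher in melatonin, at 0.40 (adjusted p = 0.00105).

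Spread within groups differed among members. ITGB4 had the widest controls, from 13.2 to 19.4 CPM, a coefficient of variation of 19.8%, and ITGA5 the tightest melatonin libraries, at 1.2%. ITGA2 varied by 13% in control and 2.3% in melatonin. ITGB3 varied by 17.3% in siCLOCK and 2.5% in melatonin. Spread also differed between the groups over all genes tested. The chi-square per gene between pairs of libraries was 1.67 to 3.14 in melatonin, 3.63 to 5.43 in control and 8.92 to 12.8 in siCLOCK.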

How the data were processed

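The deposited values are unnormalized gene counts. The submitters' processing notes name STAR 2.7.9a and GRCh38 (hg38). Counts regardless of strand were used here, and the 2 strand-specific columns as alternatives. All 58721 identifiers matched GENCODE release 29, inferred from the identifiers, which supplied symbols, positions and exon lengths. Strand totals differed by a ratio of 1.01 to 1.05, so reads of overlapping antisense genes cannot be separated.

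In R 4.3.3, edgeR 4.0.16 kept 16441 genes (filterByExpr), scaled libraries by TMM and fitted a group-means quasi-likelihood model to all 9 libraries (two-sided F tests, Benjamini-Hochberg adjustment over all genes). Levels are TMM-scaled CPM. The SE is the size of the log2 fold change divided by the square root of F. Alternatives used DESeq2 1.42.0, limma 3.58.1 (voom), other scaling, filter, samples, count columns and thresholds, a replicate block, a technical set term divided at 1.8% unmapped reads, and each library left out.

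The members, lists, tests and alternatives were chosen with earlier results of these data known. All members are named, and of each list up to 4 called genes with the smallest p per comparison. A few genes that this rule names are not reported here. The fit was tested on simulated data. Counting limits the precision of ITGB3 and ITGB4 most.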

Additional observations from a re-analysis of the deposited data

How the results depend on the processing

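Of 27 log2 fold changes (9 members in 3 comparisons), limma-voom and RLE scaling left all 27 on the same side of the threshold and of 0, the replicate block 26, and DESeq2, no low-count filter, the 6 compared libraries alone and an adjusted p under 0.01 left 25 each. Strand column 3 left 24, strand column 4 left 23 and the technical set term 19. The cause was not tested.

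In siCLOCK against control, the count of members other than ITGA10 that were higher was 0, and it was 1 with DESeq2, with no low-count filter and with the technical set term. Pathway genes called there numbered 0, and 1 with DESeq2, 4 with no low-count filter and 3 with the set term. In melatonin against control, with the set term 1 member was higher and 0 were lower, in place of 3 and 3, and 5 pathway genes were called in place of 37. Strand column 4 left 1 lower member, and an adjusted p under 0.01 left 23 pathway genes. The set term left 10 pathway genes in place of 29 in melatonin against siCLOCK.

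The value of ITGA10 in melatonin against control was -0.05, and 0.07 with the set term and -0.11 in strand column 3. In melatonin against siCLOCK it was -0.66, and -0.58 with the set term. Some values changed sign without a call. In siCLOCK against control these were ITGB4 (0.03) and ITGAV (-0.01) in strand column 4. In melatonin against siCLOCK they were ITGA2 (-0.04) and ITGB3 (-0.07) with the set term and ITGB4 (0.07) in strand column 3. The main fit gave 0.07 for ITGA2, 0.14 for ITGB3 and -0.22 for ITGB4 there.

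With each of the 9 libraries left out in turn, ITGA10 ranged from 0.55 to 0.65 in siCLOCK against control, from -0.08 to -0.01 in melatonin against control and from -0.70 to -0.60 in melatonin against siCLOCK. Higher members in siCLOCK against control numbered 0 to 1, and pathway genes 0 to 3, with 3 without siCLOCK replicate 1 or without the library labelled siCLOCK replicate 3. In melatonin against control, higher members numbered 2 to 3, lower members 2 to 4, and pathway genes 23 (without melatonin replicate 3) to 39. In melatonin against siCLOCK pathway genes numbered 23 to 33. In siCLOCK against control ITGB4 ranged from -0.25 to 0.01 and ITGAV from -0.02 to 0.07.

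Replicate numbers are shared in the labels but did not pair the libraries, since deviations of same-numbered libraries correlated at -0.092 to 0.063. With the replicate block, ITGB4 passed in melatonin against control (-0.31, adjusted p = 0.0456), so lower members numbered 4 there in place of 3, and pathway genes 36. No other member's call changed with the block.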
